A study of Mus musculus with 51 samples.

Results

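*Olfr1437*, *Olfr235*, *Olfr1440* and *Olfr1431* are 4 odorant receptor (OR) genes of 1 cluster on mouse chromosome 19, and they were followed by gene symbol through every count table, as 4 of 1117 OR genes. *Olfr1437* and *Olfr235* are named in the study for the macrocyclic musk ketone cyclopentadecanone (CPD), *Olfr1440*, also known as MOR215-1, is a known receptor of the macrocyclic musk ketone muscone, and *Olfr1431* is a close relative of *Olfr235*. The study exposed mice to an odor or to a diluent. It immunoprecipitated ribosomes that carry phosphorylated S6 (pS6) from the whole olfactory mucosa, and sequenced the RNA bound to them (pS6-IP-Seq). The 51 libraries fall into 10 odor groups and 7 control groups of 3 libraries each. The mice were wild type C57BL/6J animals of about 3 weeks, exposed for 1 hr, and the labels give neither the sex of the mouse behind each library nor the diluent of each control group.

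By the study's legends the odors were 100 mM CPD, 10 mM and 100 µM (methylthio)methanethiol (MTMT), 1% β-caryophyllene, 100% (E)-β-farnesene, 1% 2,5-dimethylpyrazine (2,5-DMP), 77% dehydro-*exo*-brevicomin (DHB), and 0.01%, 1% and 100% 2-*sec*-butyl-4,5-dihydrothiazole (SBT). CPD, 10 mM MTMT, β-caryophyllene, DHB and 0.01% SBT each had 3 control libraries of their own. (E)-β-farnesene, 2,5-DMP and 100 µM MTMT shared 3 control libraries, and so did 1% and 100% SBT. Results of odors with shared controls are therefore not independent of each other. The study diluted CPD and MTMT in ethanol and, unless otherwise stated, the other odors in water. The 3 control libraries shared with 100 µM MTMT thus cannot match the diluent of every odor compared with them. CPD was the only macrocyclic musk in the panel.

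Each olfactory sensory neuron (OSN) expresses 1 OR gene chosen from a large repertoire, and ORs are G protein-coupled receptors that raise cAMP when an odor binds. Firing of the neuron leads to phosphorylation of ribosomal protein S6, so that immunoprecipitation of pS6 enriches the OR mRNA of the neurons that responded. Musks are perfume odors whose best known mouse receptors lie in the MOR214 and MOR215 families, small groups of related ORs. In bulk tissue of this kind, fewer neurons of a type and less bound RNA per neuron cannot be told apart.

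All 4 genes lie within 201 kb of chromosome 19 (GRCm38), and 4 other ORs of the count tables lie between their outer ends. *Olfr1431* (ENSMUSG00000094133) spans chr19:12200634-12212191 on the plus strand, and its coding sequence, within 1 exon, spans chr19:12209568-12210506. *Olfr235* (ENSMUSG00000060049) follows at chr19:12261032-12270387 on the plus strand, with its coding sequence at chr19:12268232-12269170, also within 1 exon. *Olfr1437* (ENSMUSG00000096436) lies at chr19:12319207-12325101 on the minus strand and is the only one of the 4 in that orientation, with a single coding exon at chr19:12321887-12322825. *Olfr1440* (ENSMUSG00000046650) is the last of the 4, at chr19:12387279-12401584 on the plus strand, and its single coding exon lies at chr19:12394265-12395212. The proteins have 312 residues for *Olfr1437*, *Olfr235* and *Olfr1431* and 315 for *Olfr1440*.

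The first 90 coding bases are shown because they separate the 4 genes and show which of them are near copies. They were read from RefSeq on GRCm38.p6 on the strand of each gene, and capitals mark the bases that differ from *Olfr1437* at the same position (chr19:12322736-12322825 for *Olfr1437*, chr19:12268232-12268321 for *Olfr235*, chr19:12394265-12394354 for *Olfr1440* and chr19:12209568-12209657 for *Olfr1431*).
Olfr1437: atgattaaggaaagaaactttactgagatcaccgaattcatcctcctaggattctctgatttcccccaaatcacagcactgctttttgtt
Olfr235: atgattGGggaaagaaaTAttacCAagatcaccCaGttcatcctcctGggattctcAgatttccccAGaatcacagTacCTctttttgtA
Olfr1440: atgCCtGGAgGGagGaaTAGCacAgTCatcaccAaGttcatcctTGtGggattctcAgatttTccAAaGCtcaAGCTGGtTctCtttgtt
Olfr1431: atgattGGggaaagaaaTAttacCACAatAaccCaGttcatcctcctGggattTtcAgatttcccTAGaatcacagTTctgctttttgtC

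In these 90 bases *Olfr235* differed from *Olfr1437* at 16 positions, *Olfr1431* at 20 and *Olfr1440* at 34. A second stretch, coding bases 333 to 422, is shown because it is the longest run that *Olfr1437* and *Olfr235* have in common, so that a short read from it cannot be assigned to 1 of them by sequence. Capitals again mark differences from *Olfr1437*, and the positions are chr19:12322404-12322493, chr19:12268564-12268653, chr19:12394597-12394686 and chr19:12209900-12209989 in the order of the lines.
Olfr1437: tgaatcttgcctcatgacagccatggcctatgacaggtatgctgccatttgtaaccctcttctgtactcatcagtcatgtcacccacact
Olfr235: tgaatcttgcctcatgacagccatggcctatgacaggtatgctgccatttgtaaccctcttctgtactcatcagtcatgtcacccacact
Olfr1440: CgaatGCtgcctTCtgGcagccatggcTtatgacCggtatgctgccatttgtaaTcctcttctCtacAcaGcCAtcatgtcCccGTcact
Olfr1431: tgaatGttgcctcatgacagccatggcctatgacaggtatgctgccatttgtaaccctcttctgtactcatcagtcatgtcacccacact

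*Olfr1431* differed from *Olfr1437* at 1 base of this stretch and *Olfr1440* at 17. *Olfr235* and *Olfr1431* were the closest pair, with 94.2% identical residues and 96.5% identical coding bases, and their longest identical run was 310 bases. *Olfr1437* was 81.1% identical in protein to each of them, and *Olfr1440* was the most distant, at 62.5% to 63.8% from the other 3. Among all exonic stretches of 50 bases, 15.2% in *Olfr235* and 16.9% in *Olfr1431* occurred in another OR of the tables, mostly in each other, against 11.8% in *Olfr1437* and 0.509% in *Olfr1440*. The counts of *Olfr235* and *Olfr1431* can therefore be split between them by the counting program, whereas those of *Olfr1440* are almost free of this. *Olfr1437* shared such stretches mainly with *Olfr1436* and *Olfr1434*, whose proteins are 92.1% and 86.2% identical to it. Its counts can be split with theirs in the same way. *Olfr1436* had 0 reads in every CPD and CPD control library, and whether reads of it were counted as *Olfr1437* was not tested.

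Depth was 27301 to 160001 OR reads a library (median 93870), and levels are given as reads per 100000 OR reads, with 95% Wilson intervals that cover counting error only. In the 21 control libraries *Olfr1440* was the most abundant of the 4 on this scale, with a median of 72.0 (range 44.5 to 212). Its 3 control libraries of the 1% and 100% SBT experiment, at 117 to 143, lay above 17 of the 18 others, the exception being CPD control replicate 1 at 212. *Olfr235* had a median of 41.7 (31.1 to 497) and *Olfr1437* of 40.8 (2.27 to 81.4). *Olfr1431* was the lowest, with a median of 20.3 (4.80 to 178). Divided by the length of its exons, the median control level was 11.7 reads per 100000 and kb for *Olfr235*, 10.3 for *Olfr1437*, 9.46 for *Olfr1440* and 6.38 for *Olfr1431*, so that *Olfr1440* led in reads but not per length.

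CPD control replicate 1 carried the highest control value of 3 of the genes, at 497 for *Olfr235*, 212 for *Olfr1440* and 178 for *Olfr1431*. Without it the other 20 controls reached at most 94.9, 143 and 46.2. *Olfr1437* was not raised there, at 35.9 (interval 23.0 to 56.1, from 19 reads). A test of the 7 control groups against each other (edgeR, quasi-likelihood F test) called 2.57% of ORs, and *Olfr235* was the only one of the 4 among them, with group levels up to 2.11 apart on the log2 scale (adjusted p = 0.0325). Without CPD control replicate 1 this distance was 0.29 (adjusted p = 0.999). Adjusted p-values of *Olfr1431*, *Olfr1440* and *Olfr1437* in the same test were 0.356, 0.591 and 0.879.

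**Figure D1:**
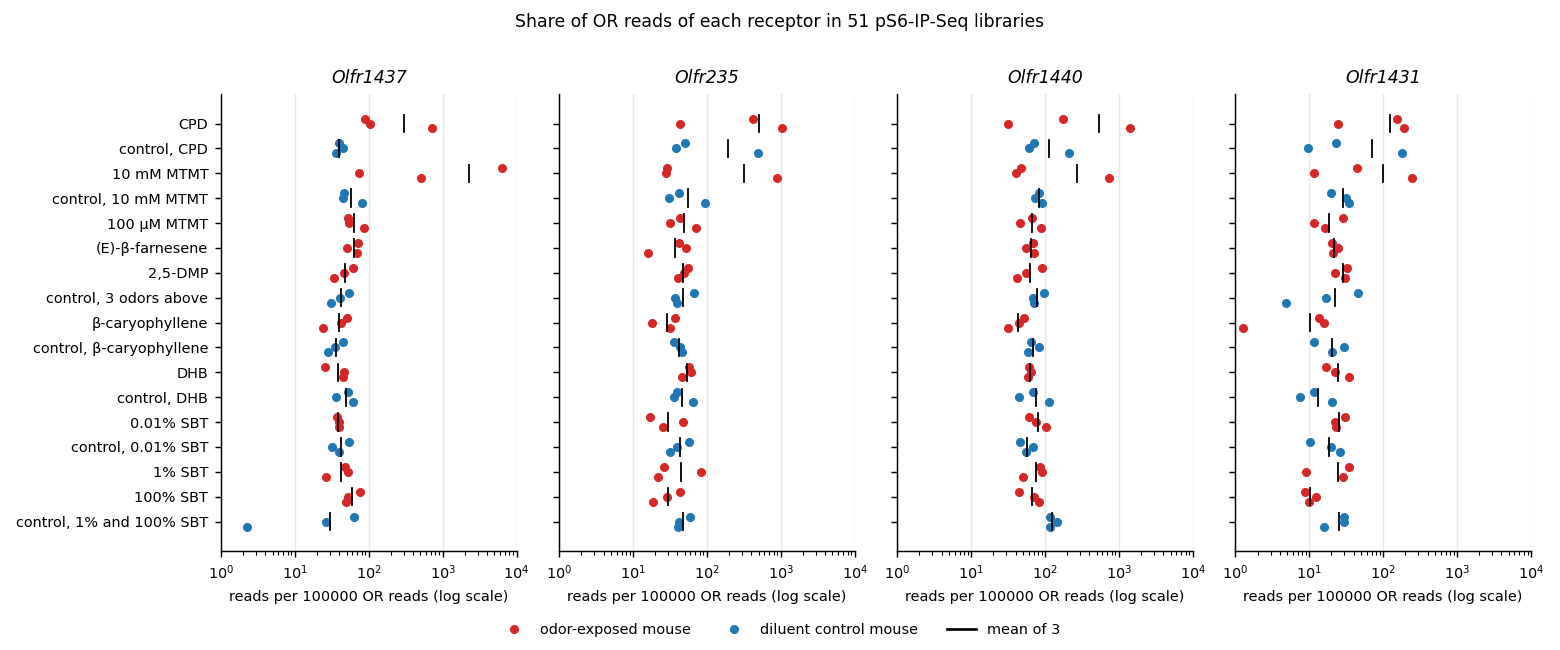
Level of each of the 4 receptor genes (reads per 100000 OR reads, log axis) in each of the 51 libraries, by group, with odor and control libraries marked apart. The high points lie in the CPD and 10 mM MTMT groups and, except for *Olfr1437*, in CPD control replicate 1. The libraries of the other 8 odors lie nearer the controls, but many fall outside the control range, most often *Olfr235* below it. *Olfr1437* reached 84.9 after 100 µM MTMT against at most 81.4 in the controls. *Olfr235* went down to 16.03, *Olfr1440* to 31.7 and *Olfr1431* to 1.27, against at least 31.1, 44.5 and 4.80.

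In some libraries receptor levels went against the label or stood apart, and these libraries bear on every value that follows. *Olfr1295*, named in the study as a receptor of MTMT, rose after 100 µM MTMT (log2 fold change 1.69, adjusted p = 0.00204, edgeR quasi-likelihood test) and serves here to read the labels. It stood at 432 in the library labelled CPD replicate 2, against 85.8 and 101 in the libraries labelled CPD replicates 1 and 3 and 106 to 113 in their controls. After 10 mM MTMT it stood at 424 and 491 in replicates 2 and 3, but at 87.6 in the library labelled 10 mM MTMT replicate 1. Of the 3 ORs past the threshold after 100 µM MTMT, 2 exceeded all 3 own controls in the library labelled CPD replicate 2 and 0 did in the library labelled 10 mM MTMT replicate 1. *Olfr1295* is 1 of these 3 ORs, and the share of all ORs above their own controls was not computed. This count is therefore no separate support.

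The summed level of the 4 musk receptors was compared in the same libraries. This summed level was 3374 and 840 in CPD replicates 1 and 3 and 202 in the library labelled CPD replicate 2. It was 2386 in the library labelled 10 mM MTMT replicate 1, 155 in replicate 2 and 6409 in replicate 3. Over the 21 controls the sum ran from 124 to 922 (median 177), and over the 24 libraries of the other 8 odors from 88.8 to 260.5 (median 175). Whether the libraries labelled CPD replicate 2 and 10 mM MTMT replicate 1 had exchanged labels was not tested, since a label cannot be set from the values, and both were kept as labelled. In 10 mM MTMT replicate 3 the sum was nearly all *Olfr1437*, at 6288.

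CPD is a musk, so the question in its comparison was which of the 4 genes rose over the diluent. *Olfr1437*, the gene the study names first for CPD, had the clearest separation. Its level was 721 (interval 656 to 791, from 437 reads), 103 (87.6 to 121) and 88.0 (71.6 to 108) in the libraries labelled CPD replicates 1, 2 and 3, against 35.9, 44.3 and 39.1 in the controls. Each CPD library was higher than each control, and replicate 1 was far above the other two. It ranked 14th among all ORs of that library, against 212th and 276th in the other two CPD libraries and 515th to 621st in the controls. The fold change was 7.84 (log2 fold change 2.97 ± 0.70, SE, unadjusted p = 0.00122), the lowest p of the 1050 ORs tested, but with an adjusted p of 0.993 it did not pass the threshold of 0.05 in edgeR's quasi-likelihood test. Without CPD replicate 1 the log2 fold change was 1.45. The exact permutation test of its log2 levels (two-sided, 3 against 3) gave p = 0.1, the smallest that this design allows.

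*Olfr235*, the second receptor named for CPD, was high in 2 of the 3 CPD libraries but also in 1 control. Its level was 1037 (interval 960 to 1121), 43.2 (33.8 to 55.2) and 426 (388 to 468) in CPD replicates 1 to 3, against 497 (441 to 561), 38.0 and 50.7 in the controls. The groups overlapped, with control replicate 1 above CPD replicates 2 and 3. The log2 fold change was 1.45 ± 0.99 (SE, unadjusted p = 0.168, adjusted p = 0.993, edgeR). It was 0.38 without CPD replicate 1 and 3.50 without CPD control replicate 1. By replicate number, the log2 ratio of odor to control was 1.06, 0.18 and 3.07. In pair 2 the intervals overlapped (33.8 to 55.2 against 25.5 to 56.5), so the sign of that pair lies within counting error.

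*Olfr1440*, the muscone receptor, reached the highest level of the 4 in any CPD library. It was at 1425 (interval 1334 to 1522, rank 4 among all ORs of the library) in CPD replicate 1, at 31.5 (23.6 to 42.0) in replicate 2 and at 173 (149 to 200) in replicate 3, against 212 (176 to 255), 61.7 and 71.0 in the controls. The library labelled CPD replicate 2 was lower than all 3 controls. The log2 fold change was 2.29 ± 0.98 (SE, unadjusted p = 0.0374, adjusted p = 0.993, edgeR). Without CPD replicate 1, and with control replicate 1 kept, it was -0.060. By replicate number, the log2 ratio of odor to control was 2.75, -0.97 and 1.28, so the pairs differed in sign.

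*Olfr1431*, the near copy of *Olfr235*, had levels of 191 (interval 160 to 229), 24.7 (17.8 to 34.2) and 153 (131 to 179) in CPD replicates 1 to 3, against 178 (145 to 217), 9.50 and 23.2 in the controls. CPD replicate 1 and control replicate 1 had overlapping intervals, while replicate 3 lay well above its control. The log2 fold change was 0.91 ± 0.84 (SE, unadjusted p = 0.299, adjusted p = 0.993, edgeR), and without CPD control replicate 1 it was 2.89. The ratio of *Olfr235* to *Olfr1431* reads varied from 1.75 to 5.42 in the CPD libraries and from 2.19 to 4 in the controls.

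**Figure D2:**
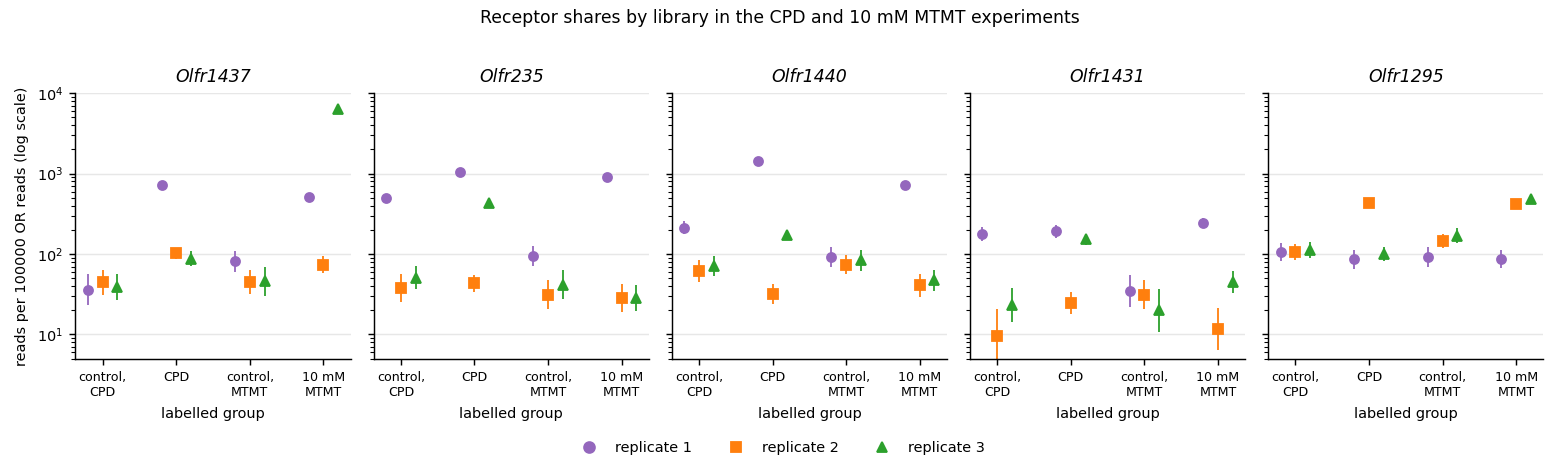
Levels of the 4 receptors and of *Olfr1295* (reads per 100000 OR reads, log axis) in each library of the CPD and 10 mM MTMT experiments, by replicate number. The library labelled CPD replicate 2 is low for *Olfr235*, *Olfr1440* and *Olfr1431* and high for *Olfr1295* (432), and the library labelled 10 mM MTMT replicate 1 is high for all 4 receptors and low for *Olfr1295* (87.6).

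In edgeR's quasi-likelihood test 0 of the 4 genes passed after CPD, beside 0% of the 1050 ORs tested. The study shows *Olfr1437* and *Olfr235* as enriched after CPD, by a different procedure. It ran edgeR over all genes and corrected p-values again over intact ORs, and its deposited columns hold a likelihood ratio. Here only OR genes entered the fit. At an unadjusted p under 0.05 there were 2 of the 4 (*Olfr1437* and *Olfr1440*), beside 3.81% of all ORs. The study used littermates, and with the replicate number as a block all 4 had an unadjusted p under 0.05, beside 4.86% of all ORs. The blocked edgeR values were 2.33 for *Olfr1437* (unadjusted p = 0.00131), 1.57 for *Olfr235* (0.00308), 1.36 for *Olfr1431* (0.00995) and 1.26 for *Olfr1440* (0.0378), with adjusted p from 0.779 to 0.923, so 0 passed. DESeq2, edgeR's likelihood ratio test and its exact test each called 1 of the 4, *Olfr1437*, and no other OR (0.0952% of ORs), with adjusted p-values of 0.00231, 0.0288 and 0.0368 and log2 fold changes of 2.98. CPD libraries lay above every control without overlap for 2.19% of ORs tested, and *Olfr1437* was the only one of the 4 among them. The median log2 fold change of the 4 genes was 1.87, against -0.02 over all ORs tested. The study named *Olfr1437* and *Olfr235* for CPD from these same libraries. Their ranks, and the shares and median of the 4 genes, are therefore no independent support.

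Leaving out the library labelled CPD replicate 2 raised all 4 log2 fold changes, to 3.34 for *Olfr1437*, 2.85 for *Olfr1440*, 1.99 for *Olfr235* and 1.39 for *Olfr1431*. *Olfr1437* then passed the threshold (adjusted p = 0.0157) and was the only OR to do so (0.0961% of ORs). With CPD replicate 1 left out, 0 ORs passed and the values were 1.45, -0.060, 0.38 and 0.48 in the same order. After the data were seen, each replicate number was also left out of both groups in turn, with the number as a block and 2 libraries left in each group. Without number 1, 0 of the 4 passed, beside 0% of ORs (log2 fold changes 1.35 for *Olfr1437*, 0.38 for *Olfr1440*, 1.90 for *Olfr235* and 2.33 for *Olfr1431*). Without number 2, all 4 passed, beside 0.485% of ORs (2.83, 2.11, 1.98 and 1.24), and without number 3 *Olfr1437* passed (2.96), beside 0.292% of ORs. Number 2 had stood apart partly by the levels of these same 4 genes, so its removal is no independent support for them.

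**Figure D3:**
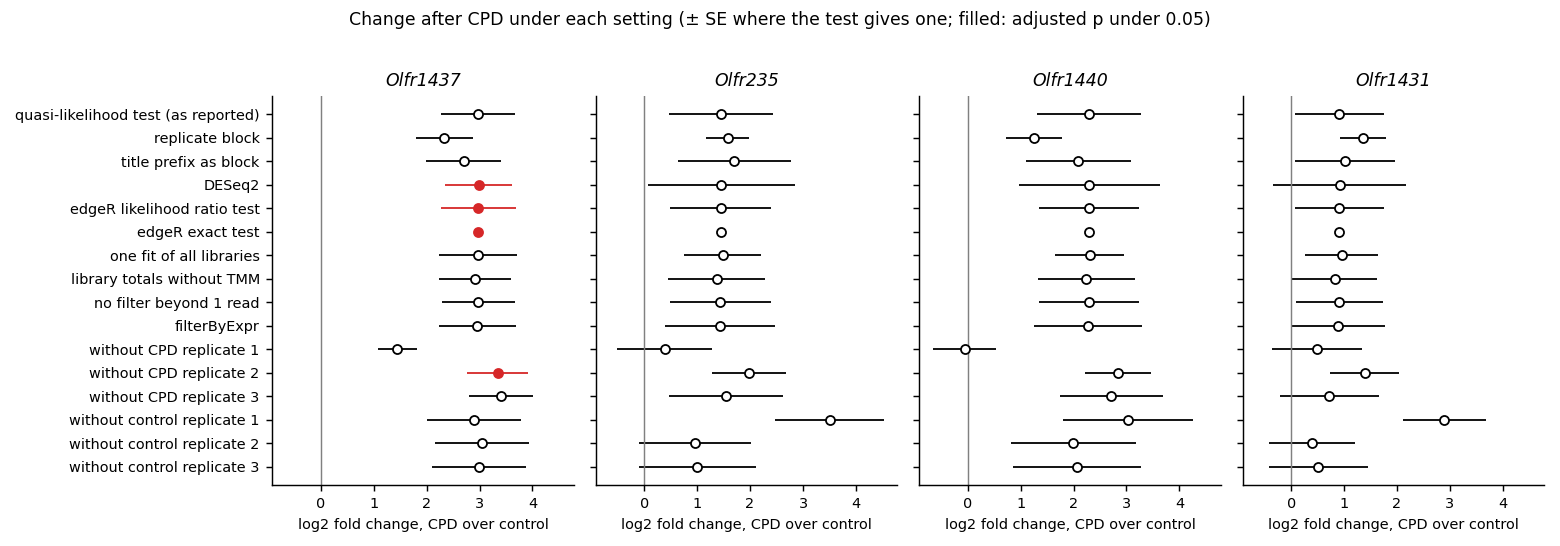
Log2 fold change after CPD of each of the 4 receptors under the main edgeR test, the alternative tests, the replicate block and each library left out. *Olfr1437* stays above 0 throughout, at 1.45 to 3.41 with 1 library left out, while *Olfr1440* comes to -0.060 without CPD replicate 1.

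The titles of the CPD libraries carry 2 prefixes, 1 shared by replicates 1 and 2 of both groups and 1 by replicate 3, and the odor effect was computed within each. The log2 ratio of odor to control was 3.36 and 1.17 for *Olfr1437*, 1.01 and 3.07 for *Olfr235*, 2.41 and 1.28 for *Olfr1440* and 0.21 and 2.73 for *Olfr1431*, the second value resting on 1 library a group. All 8 ratios were above 0. The first value is a ratio of mean levels over replicates 1 and 2, so the higher library weighs most in it. For *Olfr1440* the pair of replicate 2 alone was at -0.97, the only same-numbered CPD pair of the 4 genes below 0. With the prefix as a block the log2 fold changes were 2.70, 1.70, 2.09 and 1.02 and 0 of the 4 passed.

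Whether the 4 genes changed by different amounts was tested on the log2 ratio between each pair of them. The difference in this ratio between CPD and control libraries was largest for *Olfr1437* to *Olfr1440*, at 1.09 (-0.12 ± 1.45 against -1.21 ± 1.05, SD, n = 3, exact permutation test, two-sided, p = 0.6). Over the 6 pairs the exact p ran from 0.5 to 0.9, and each was 0.9 after adjustment over the 6 pairs. With 3 libraries a group this test cannot give a p below 0.1, so no pair could have passed 0.05 and the values are a description. *Olfr1437* reads were 0.69, 2.38 and 0.21 times those of *Olfr235* in the CPD libraries and 0.07, 1.17 and 0.77 times in the controls.

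Whether an effect was particular to CPD was tested in 1 edgeR fit of all libraries. The test took the difference between the CPD effect and the mean effect of the other 9 odors. The odors differed in diluent, whose part in this contrast was not tested. This contrast was 2.34 ± 0.70 for *Olfr1440* (log2, SE, unadjusted p = 0.00153, adjusted p = 0.604), the second lowest p of 1102 ORs. It was 1.93 ± 0.77 for *Olfr1437* (adjusted p = 0.886), 1.31 ± 0.79 for *Olfr235* and 0.75 ± 0.75 for *Olfr1431* (adjusted p = 1.00 for both). None of the 4 passed, beside 0% of all ORs, and 2 of the 4 had an unadjusted p under 0.05, beside 4.54% of all ORs. The likelihood ratio test of this contrast also called 0 of the 4. The *Olfr1440* contrast changed with the library left out. It was 0.0058 without CPD replicate 1, where 0 of the 4 had an unadjusted p under 0.05, and 2.92 without the library labelled CPD replicate 2, where it passed (adjusted p = 0.0143) beside 0.181% of ORs. With 10 mM MTMT left out of the other odors, a setting chosen after seeing the data, it was 2.57 (adjusted p = 0.241).

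MTMT is a sulfur compound of male mouse urine, and its 10 mM group held the other high values. *Olfr1437* stood at 511 (interval 460 to 567), 74.0 (57.8 to 94.6) and 6288 (6132 to 6447) in the libraries labelled 10 mM MTMT replicates 1, 2 and 3, against 81.4, 45.2 and 45.7 in the controls. In replicate 3 it had 5724 reads and ranked second of all ORs behind *Olfr541*, which took 9.79% of the OR reads there. Replicate 2 lay below the highest control, so the groups overlapped. The log2 fold change was 5.75 ± 1.42 (SE, unadjusted p = 0.00236, adjusted p = 0.449, edgeR). It was 2.48 without replicate 3 and 6.25 without replicate 1, where it passed (adjusted p = 0.0217) beside 3.64% of ORs.

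*Olfr235* stood at 903 in the library labelled 10 mM MTMT replicate 1 and at 28.2 and 28.6 in the other two, against 94.9, 31.1 and 41.7 in the controls. *Olfr1440* stood at 729, 41.1 and 47.2, against 91.1, 73.5 and 83.5. *Olfr1431* stood at 244, 11.7 and 45.0, against 34.9, 31.1 and 19.9. For *Olfr235* and *Olfr1440*, replicates 2 and 3 were below every control, and only the library labelled replicate 1 was above. The log2 fold changes were 2.62 ± 1.12, 1.85 ± 0.86 and 1.95 ± 0.80 (SE, adjusted p = 0.735, 0.797 and 0.655, edgeR), and without that library they were -0.52, -0.45 and 0.44. In this comparison 0 of the 4 genes passed, beside 0% of 1054 ORs, and 3 of the 4 had an unadjusted p under 0.05, beside 6.55% of ORs. DESeq2 called *Olfr1437* (log2 fold change 5.74, adjusted p = 0.00958), beside 1.42% of ORs, and edgeR's likelihood ratio and exact tests called it beside 0.474% of ORs each, while DESeq2 gave no adjusted p for *Olfr235* and *Olfr1440*.

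Among the other 8 odors 0 of the 32 tests of a member passed the threshold in edgeR, and 0 had an unadjusted p under 0.05. The ORs with such an unadjusted p were 44 of 1068 after 100 µM MTMT, 51 of 1048 after β-caryophyllene and 69 of 1071 after (E)-β-farnesene. They were 47 of 1070 after 2,5-DMP and 38 of 1064 after DHB. After 0.01%, 1% and 100% SBT they were 29 of 1072, 53 of 1043 and 222 of 1050. DESeq2, edgeR's exact test and its likelihood ratio test called 0 of them too. Beside this they called 0 ORs each after β-caryophyllene and up to 139, 151 and 160 ORs, after 100% SBT. Over all ORs tested the share called was 0.281% after 100 µM MTMT, 0% after β-caryophyllene, 1.77% after (E)-β-farnesene, 0.841% after 2,5-DMP, 0.564% after DHB, and 0.466%, 0.863% and 11.4% after 0.01%, 1% and 100% SBT. The 32 log2 fold changes ran from -0.90 to 1.46, with 13 above 0 and 19 below, and their SEs from 0.27 to 0.82.

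The highest of these values belonged to *Olfr1437*. Its log2 fold change after 100% SBT was 1.46 ± 0.69 (SE, adjusted p = 0.250, edgeR), beside levels of 49.0, 52.6 and 76.5 against 2.27, 26.2 and 62.3. The fit rescales libraries by TMM and the levels do not. In this comparison the median log2 fold change of all ORs was -0.07 with TMM and -0.47 without it. These groups overlapped, and the lowest control value came from 1 read. After (E)-β-farnesene the levels were 68.3, 49.999 and 70.5, against 30.4, 40.8 and 54.3 in the shared controls (log2 fold change 0.62 ± 0.30, adjusted p = 0.768). After 100 µM MTMT, at 84.9, 53.6 and 53.0, the log2 fold change was 0.56 ± 0.30 (adjusted p = 0.955). In the remaining 5 groups *Olfr1437* lay between 24.1 and 61.1.

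*Olfr1440* was lower than in the controls after 7 of these 8 odors by its fitted value, with log2 fold changes from -0.63 to -0.16. It was higher after 0.01% SBT (0.50 ± 0.30). These values are not independent, because of the shared controls. Those shared by 1% and 100% SBT, at 117 to 143, were high for this gene. Its levels after 0.01% SBT were 102.5, 75.2 and 60.7, against 56.1, 69.6 and 46.1 in the controls, and the groups overlapped. *Olfr235* ran from 16.03 to 84.4 over the 24 libraries and had log2 fold changes from -0.49 to 0.37. *Olfr1431* ran from 1.27 to 34.6, where 1 read stood behind the lowest value, and its log2 fold changes ran from -0.90 after β-caryophyllene to 1.04 ± 0.52 after DHB. The DHB levels of *Olfr1431* were 34.6, 22.2 and 16.8, against 20.3, 7.42 and 11.8 in the controls, so these groups overlapped too.

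**Figure D4:**
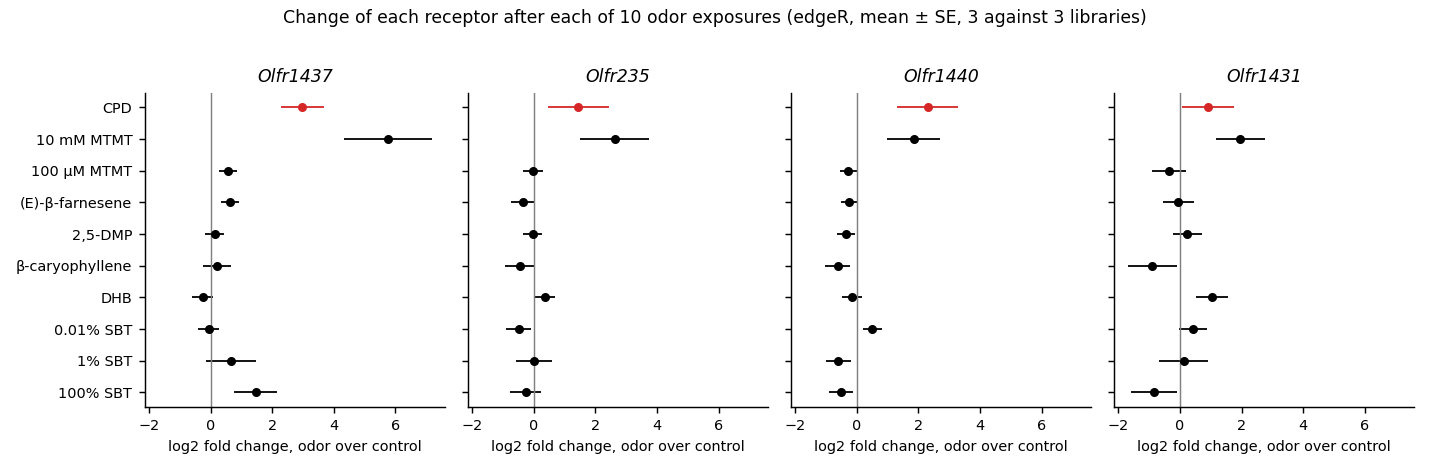
Log2 fold change (odor over control, edgeR, bars ± SE, 3 against 3 libraries) of each of the 4 receptors after each of the 10 odor exposures, with CPD in red. The points of CPD and 10 mM MTMT lie above 0 for all 4 receptors, and the other 8 odors run from -0.90 to 1.46, with *Olfr1431* after DHB (1.04) to the right of its CPD point (0.91).

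Read library by library against all 21 controls, *Olfr1437* exceeded the highest control in 6 of 30 odor libraries. These were the 3 CPD libraries, the libraries labelled 10 mM MTMT replicates 1 and 3, and 100 µM MTMT replicate 1, which at 84.9 was just above the highest control (81.4). *Olfr235*, *Olfr1440* and *Olfr1431* each exceeded every control in 2 of 30, namely CPD replicate 1 and the library labelled 10 mM MTMT replicate 1. On the same reading *Olfr1434* exceeded every control in 4 of 30 and *Olfr1295* in 6 of 30. The share over all ORs was not computed, so these counts are a description only. When the 17 groups were ordered by mean level, 10 mM MTMT and CPD came first for *Olfr1437* (2291 ± 3468 and 304 ± 361, SD, n = 3) and CPD and 10 mM MTMT for *Olfr235* (502 ± 501 and 320 ± 505). For none of the 4 genes were neighbours in this order farther apart than the sum of their SDs at any of the 16 steps.

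*Olfr1434*, an OR of the same cluster and a close relative of *Olfr1437*, was at 87.4, 5.48 and 31.3 in CPD replicates 1 to 3, against 18.9, 1.58 and 13.0 in the controls. These groups overlapped, and the log2 fold change was 1.88 ± 0.88 (SE, unadjusted p = 0.0537, adjusted p = 0.993, edgeR), with 8 to 53 reads in the CPD libraries and 1 to 10 in the controls. Of 23 related ORs by symbol, *Olfr1417* to *Olfr1450*, 22 could be tested after CPD, 0 passed and the median log2 fold change was -0.07. Of 12 ORs within 250 kb of a member, 11 were tested, 0 passed and the median was -0.02. Of 4 ORs with a protein at least 60% identical to that of a member, 3 were tested, 0 passed and the median was -0.18, against -0.02 over all ORs.

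Likeness of pattern was measured as Pearson's r of log2 levels over the 51 libraries, among 938 candidate ORs, as a description. The points share library totals and may share a batch within an experiment, whose part in r was not tested. *Olfr235*, *Olfr1440* and *Olfr1431* were each other's nearest neighbours, with r of 0.82 for *Olfr235* and *Olfr1440*, 0.76 for *Olfr235* and *Olfr1431*, and 0.74 for *Olfr1440* and *Olfr1431*. In the 39 libraries outside the CPD and 10 mM MTMT experiments these values were 0.27, 0.07 and 0.40. The third neighbours were *Olfr731* for *Olfr235* (0.48) and *Olfr1431* (0.60), and *Olfr1434* for *Olfr1440* (0.45). *Olfr1437* stood closest to *Olfr541* (0.67), *Olfr201* (0.62) and *Olfr401* (0.55), and its r with *Olfr235*, *Olfr1440* and *Olfr1431* was 0.37, 0.34 and 0.45. Outside the CPD and 10 mM MTMT experiments the r with *Olfr1437* was 6.94e-05 for *Olfr541*, 0.43 for *Olfr201* and 0.37 for *Olfr401*.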

How the data were processed

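RNA from pS6 immunoprecipitates of whole olfactory mucosa was sequenced in 51 libraries. The authors aligned reads to GRCm38 with STAR and estimated expected counts with RSEM, deposited as whole numbers for 1117 OR genes without normalization (program versions are not given in the sources used here). Their deposited fold change, logCPM, likelihood ratio, p-value and FDR columns were not used, and 6 columns of a further table match no sample and were not analysed here. Other genes are not in these tables (0 of 15 cell type markers), so the tissue could not be checked. Control values repeated between tables were identical. Group differences in the counts were tested in R 4.3.3 with edgeR 4.0.16 (TMM over OR genes, at least 10 reads over the libraries compared, glmQLFTest, Benjamini-Hochberg over all ORs tested, threshold 0.05). The SE is the log2 fold change over the square root of F, and the procedure was tested on simulated data. Exact permutation tests used log2(level + 5), with levels per 100000 OR reads, and Wilson intervals came from scipy 1.17.1. Gene positions follow GENCODE and coding sequences RefSeq, both on GRCm38.

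All 51 pairs of replicates differed beyond counting noise (chi-squared per degree of freedom 5.22 to 28.0), and p-values measure the spread between these libraries. Replicate numbers come from the labels. Same-numbered odor and control libraries deviated together in all 3 pairs (r over 0.1) in 4 of 10 comparisons, CPD among them (r of 0.29, 0.12 and 0.19). Over the 10 comparisons this r was always positive, from 0.052 to 0.29. In every comparison each odor library had its highest r with the control of its own number. The members and lists were chosen with earlier results of these data known. Named genes are the 4 members, related ORs past the threshold after CPD (none), *Olfr1434*, the 3 ORs of highest correlation with each member, and *Olfr1295* where libraries go against a label. *Olfr1433* was not analysed here. Alternatives were a replicate block, DESeq2 1.42.0, edgeR's exact and likelihood ratio tests, library totals without TMM, other filters, 1 fit of all libraries, a title prefix block, other pseudocounts, another denominator of the shares and each library left out. Dropping a replicate number from both groups, leaving out 10 mM MTMT, and leaving out CPD control replicate 1 from the control test were chosen after seeing the data.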

Additional observations from a re-analysis of the deposited data

How the results depend on the processing

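The call of *Olfr1437* after CPD depended on the test. Its log2 fold change, 2.97 in the quasi-likelihood test, was 2.98 in DESeq2 and in edgeR's exact and likelihood ratio tests, where it passed the threshold, as it did without CPD replicate 2 (3.34) and under the replicate block without number 2 (2.83) or number 3 (2.96). Over its alternatives the adjusted p ran from 5.80e-11, under the block without number 2, to 0.998. The settings without a number in both groups were chosen after seeing the data. The members past the threshold were 1 under DESeq2, the exact test, the likelihood ratio test, without CPD replicate 2 and under the block without number 3, and 4 under the block without number 2, where *Olfr235* (1.98), *Olfr1440* (2.11) and *Olfr1431* (1.24) passed too. All ORs called were 1 in DESeq2, the exact test, the likelihood ratio test, 1 fit of all libraries and without CPD replicate 2, and 5 and 3 under the block without number 2 and number 3. With 1 library left out, the log2 fold changes ran from 1.45 to 3.41 for *Olfr1437*, 0.38 to 3.50 for *Olfr235*, -0.060 to 3.03 for *Olfr1440* and 0.39 to 2.89 for *Olfr1431*, the highest value of *Olfr235* and *Olfr1431* coming without CPD control replicate 1, and members and ORs called ran from 0 to 1. With the replicate block over all 3 pairs the values were 2.33, 1.57, 1.26 and 1.36 and 0 members passed, and the block changed no other call of a member in the 10 comparisons.

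The CPD contrast of *Olfr1440* against the other odors passed at 2.92 without CPD replicate 2 and at 3.16 with 10 mM MTMT also left out, a setting chosen after the members' values were seen and no support for the call, and ran from 0.0058 (without CPD replicate 1) to 3.05 with 1 library left out. The control difference of *Olfr235* did not pass without the CPD control group (0.32), without the β-caryophyllene control group (2.12) or without CPD control replicate 1 (0.29). Over the alternatives the adjusted p ran from 0.00647 to 1.00 for the *Olfr1440* contrast, from 0.0015 to 0.999 for the *Olfr235* control difference and from 4.23e-06 to 0.968 for *Olfr1437* after 10 mM MTMT. The log2 ratio of *Olfr1440* to *Olfr1431* (-0.18) was 0.12 with a pseudocount of 20.

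For the other 9 odors, 469 of 503 values under alternatives kept direction and call, 5 passed the threshold where the main value had not, all *Olfr1437* after 10 mM MTMT, and 29 in 13 results turned direction. The turned values with all libraries were small. Under the replicate block they were 0.21 for *Olfr1431* after (E)-β-farnesene and, after 1% SBT, -0.17 for *Olfr235* and -0.048 for *Olfr1431*. Without TMM they were 0.0089 for *Olfr235* after 100 µM MTMT and, after 1% SBT, -0.064 for *Olfr235* and -0.051 for *Olfr1431*, and DESeq2 gave -0.021 for *Olfr235* after 1% SBT. With 1 library left out, *Olfr235* ran from -0.52 to 3.27 after 10 mM MTMT, -0.34 to 0.28 after 100 µM MTMT, -0.22 to 0.25 after 2,5-DMP, -0.74 to 0.27 after 1% SBT and -0.64 to 0.011 after 100% SBT, where the lowest value with an odor library left out was -0.53. *Olfr1431* ran from -0.79 to 0.64 after 100 µM MTMT, -0.44 to 0.95 after (E)-β-farnesene, -0.13 to 1.21 after 2,5-DMP and -0.21 to 0.55 after 1% SBT. *Olfr1440* ran from -0.45 to 2.34 after 10 mM MTMT and -0.42 to 0.19 after DHB, and *Olfr1437* from -0.11 to 0.32 after 2,5-DMP and -0.24 to 0.17 after 0.01% SBT. The causes were not tested. Depth limits *Olfr1431* most, with 1 to 57 reads in most libraries.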
